A study of Homo sapiens with 24 samples.

Results

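The axoneme is the microtubule core of motile cilia and of the sperm tail, and 54 genes named for its parts were followed in rhabdomyosarcoma cells treated with a DNA methyltransferase inhibitor, a kinase inhibitor or both. The 54 genes are those, of 29639 genes present in all 4 comparison tables, whose symbol consists of DNAH, DNAI, DNAAF, CFAP, RSPH or TEKT, a number and at most 1 further letter. These prefixes stand for the heavy chains, intermediate chains and assembly factors of axonemal dynein, for cilia and flagella associated proteins, for radial spoke head proteins and for tektins. The choice rests on the names and uses no measured value.

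Messenger RNA came from the cell lines Rh30 and RD, which are labelled alveolar and embryonal rhabdomyosarcoma, tumours of muscle lineage. Cells of either line received DMSO alone, 0.5 µM SGI-110, dasatinib, or both drugs (the combination) over 5 days, in 3 cultures each, which makes 24 libraries in 8 groups. Both drugs were dissolved in DMSO, and the dose of dasatinib cannot be read from the labels with certainty. SGI-110 (guadecitabine) is a prodrug of decitabine, a nucleoside that traps DNA methyltransferases so that dividing cells lose DNA methylation, and dasatinib blocks SRC and ABL family kinases. The comparisons ask what each drug and the pair of drugs change, and whether dasatinib acts differently when SGI-110 is present.

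Axonemal dyneins are motors fixed in rows along the outer microtubule doublets. Outer arms power the beat and inner arms shape it, while radial spokes and the central apparatus pass on the signals that time it. Cells assemble the dynein arms in the cytoplasm with dedicated factors and switch the whole set on under the forkhead factor FOXJ1 and factors of the RFX family. Skeletal muscle cells carry no motile cilia, and several of these genes are used mainly in the testis.

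The values come from the authors' comparison tables, which hold no value per library and name no cell line. Their standard errors have the size of 3 libraries per treatment, so each fold change is that of 1 line, left unnamed here, while the mean normalised count covers all 24 libraries. Every log2 fold change and difference was computed here as the deposited Wald statistic times its standard error, and adjusted p-values are the authors' unless a test is said to be computed here. The count of each gene per treatment, summed over 3 libraries and not scaled for library size, was recovered from those errors. Relative to DMSO, library size factors were 1.18 for SGI-110, 1.14 for dasatinib and 1.13 for the combination, so a count can rise a little while the scaled level falls. The recovered counts are close to whole numbers for most genes of 2 to 10 counts with DMSO, dasatinib and the combination (77.8%, 85.2% and 69% within 0.15), and for 42.9% with SGI-110, so SGI-110 counts are the least exact. The muscle regulators MYOD1 and MYOG and the muscle filament gene DES were present in every treatment, with lowest recovered counts of 21633, 8352 and 16938. Of the 11 muscle lineage genes read, MYF6 alone was at 0 in DMSO and dasatinib, with 130 counts under SGI-110 and 138 under the combination. By the authors' deposited table, 6 of the 11 were higher and 3 lower with SGI-110 than with DMSO. These were 54.5% and 27.3%, against 30.4% and 17.1% of every gene tested. With dasatinib 0 were higher and 7 lower than with DMSO (0% and 63.6%, against 17.8% and 13.2%). For the combination against DMSO it was 4 and 6 (36.4% and 54.5%, against 29.8% and 17.6%). In bulk RNA, fewer cells that express a gene and less RNA per cell cannot be told apart. The total count of each library is unknown, and p-values measure only the spread between cultures of the same group. The largest standard error has the size expected in a fit of all 24 libraries. That spread is therefore read as estimated over the cultures of both lines, although the fold changes are those of 1.

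Many of the axonemal genes were at or near 0 counts in DMSO. The median recovered count was 3, 13 of the 54 genes were at 0, 27 were at 3 or fewer and 12 were at 100 or more. With SGI-110 the median was 42, 2 genes were at 0 and 16 reached 100. With dasatinib the median was 4 with 8 genes at 0, and with the combination it was 22 with 1 gene at 0. The counts summed over the 54 genes were 12086 in DMSO, 19332 with SGI-110, 13541 under dasatinib and 13360 under the combination, and DNAH3 alone made up most of the rise with SGI-110.

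**Figure D1:**
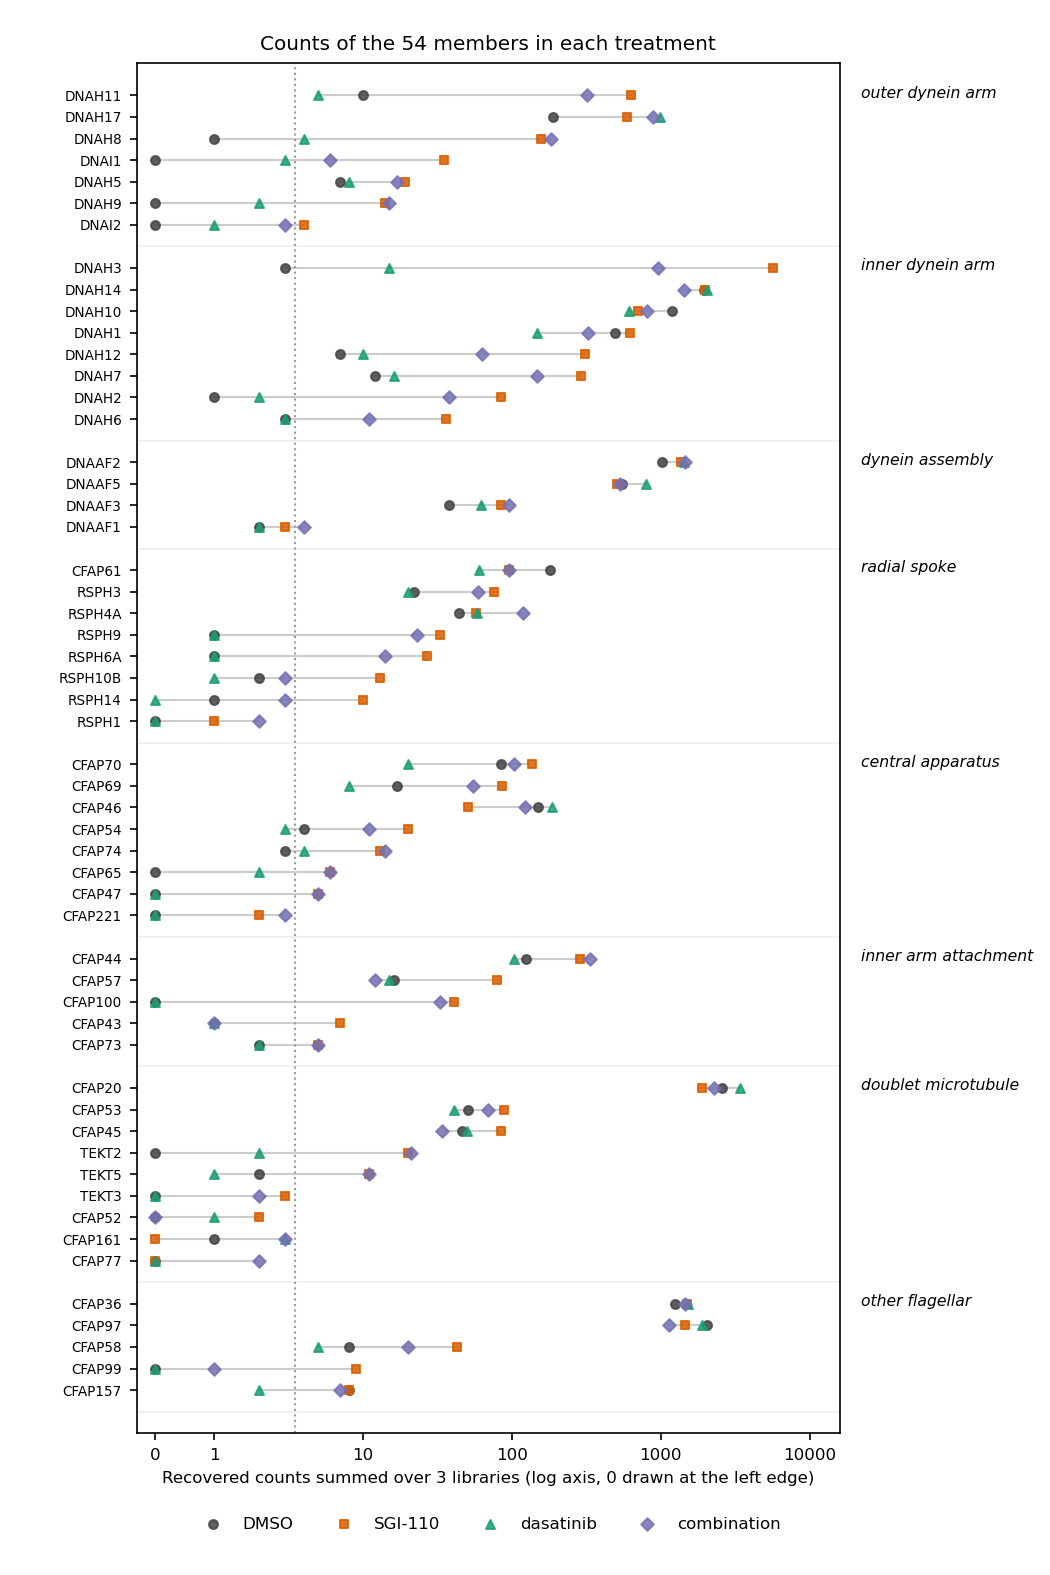
Recovered counts of the 54 genes, summed over 3 libraries of a treatment (log axis, 0 at the left edge), grouped by the place of the protein in the axoneme; each symbol is 1 treatment and the dotted line lies just above 3 counts. In DMSO 27 genes lie at or left of the line, and with SGI-110 7 do.

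By the authors' deposited table, at an adjusted p under 0.05, 20 of the 54 genes were higher with SGI-110 than with DMSO and 7 were lower, while 2 had no adjusted p. Over every gene tested in that comparison, 30.4% were higher and 17.1% lower, against 38.5% and 13.5% of the 52 axonemal genes with an adjusted p. Among the 27 genes with more than 3 counts in each group, 10 were higher and 7 lower, with a median log2 fold change of 0.57, against 0.01 for every gene measured that way. With dasatinib 4 genes were higher and 5 lower by the authors' deposited table. These were 11.4% and 14.3% of the 35 with an adjusted p, against 17.8% and 13.2% of the genes tested. The median log2 fold change was -0.12 over the 25 genes with more than 3 counts in each group. Both drugs together left 19 higher and 6 lower than with DMSO by the authors' deposited table. These were 37.3% and 11.8% of the 51 with an adjusted p, against 29.8% and 17.6% of the genes tested. Among genes with more than 3 counts in each group it was 10 and 6.

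The share that rose differed with the level in DMSO. Of the 27 axonemal genes at 3 or fewer counts in DMSO, 10 rose with SGI-110 (37%), which is close to the 36.3% of all 8753 genes at that level; a gene at this level can hardly be called lower. Of the 15 genes at 4 to 99 counts, 8 rose (53.3%) and none fell, against 23.9% and 3.36% of 8163 genes. Of the 12 genes at 100 or more counts, 2 rose and 7 fell (16.7% and 58.3%), against 27.9% and 36.1% of 12723 genes. With the combination 33.3%, 46.7% and 25% of the axonemal genes of these 3 levels were higher than with DMSO, against 32.5%, 21.3% and 29.4% of every gene, and 6 of the 12 most abundant genes were lower (50%, against 35.6%).

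**Figure D2:**
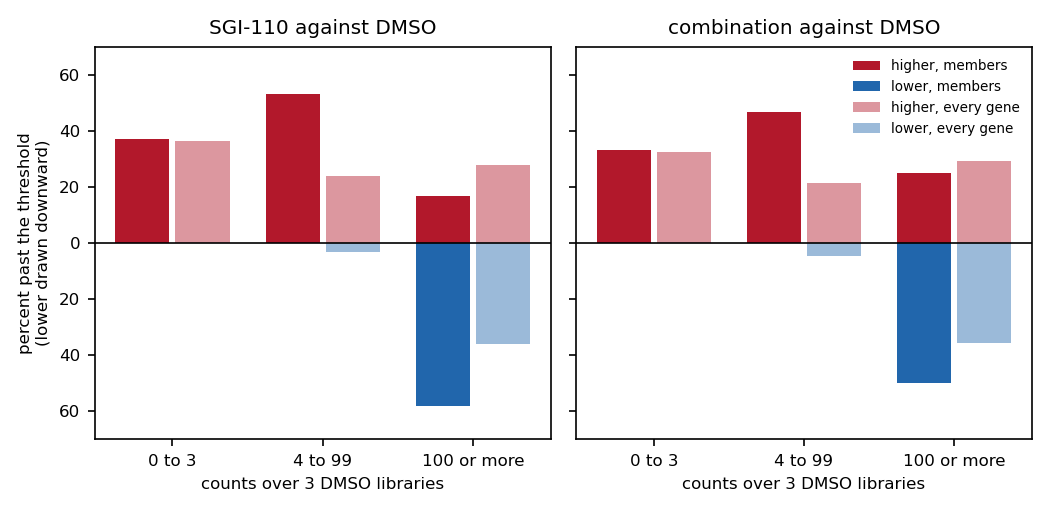
Percent of genes past an adjusted p of 0.05, higher drawn upward and lower drawn downward, by the recovered count in DMSO, for the 54 axonemal genes (dark) and every gene (light). The share of axonemal genes that rose with SGI-110 is 37% at 0 to 3 counts against 36.3% of every gene, and 53.3% at 4 to 99 counts against 23.9%.

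Of the 7 outer dynein arm genes, 5 were higher with SGI-110 and none was lower (71.4% and 0%, against 30.4% and 17.1% of every gene tested). Among the higher ones, DNAH8, DNAH9 and DNAI1 had 0 or 1 count in DMSO, and 36.3% of all genes at 3 or fewer counts rose. DNAH11, a heavy chain of the outer arm whose loss disturbs left-right body asymmetry, had 10 counts in DMSO, 628 with SGI-110, 5 under dasatinib and 320 with the combination. Its log2 fold change with SGI-110 was 5.74 ± 0.48 (SE), with 6.821e-31 as the adjusted p listed by the authors' deposited table, and both groups given SGI-110 lay far above the other two. DNAH11 lies at chr7:21543215-21901839 on the plus strand of GRCh38, and CDCA7L, which overlaps it on the minus strand, went the other way (-0.80 ± 0.05). DNAH8, a heavy chain known from the sperm tail, had 1 count in DMSO, 157 with SGI-110, 4 under dasatinib and 182 under the combination. That is a 132.7-fold ratio of SGI-110 to DMSO with a counting interval of 23.48 to 5276 (exact, 95%, counting error only), and its adjusted p was 3.032e-08 from the authors' deposited table. Only about 4.78% of the normalised DNAH8 counts of the 24 libraries fell in the line compared here, so most DNAH8 reads belong to the other line.

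DNAI1, an intermediate chain of the outer arm, had 0 counts in DMSO, 35 with SGI-110, 3 under dasatinib and 6 under the combination. It was at least 9.86-fold higher with SGI-110 than the floor of 3 counts over the DMSO group, with 2.879e-05 as the adjusted p listed by the authors' deposited table. FAM219A, which overlaps DNAI1 on the opposite strand, rose with SGI-110 as well (0.47 ± 0.11). DNAH9, the partner heavy chain that sits in the distal part of airway cilia, went from 0 to 14 counts and was at least 3.94-fold higher (adjusted p 0.004614 from the authors' deposited table). DNAH5, the heavy chain most often mutated in primary ciliary dyskinesia, did not pass the threshold, with 7, 19, 8 and 17 counts in DMSO, SGI-110, dasatinib and the combination. Its log2 fold change of 1.18 ± 0.74 with SGI-110 spans a wide interval at this depth. DNAI2, the other intermediate chain, had 0, 4, 1 and 3 counts in the same order and did not pass the threshold.

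DNAH17, the outer arm heavy chain of the sperm tail, was the one outer arm gene called with dasatinib alone. It had 188 counts in DMSO, 596 with SGI-110, 986 under dasatinib and 887 under the combination. Dasatinib alone raised it by 2.20 ± 0.16 log2 (adjusted p 8.768e-41) and SGI-110 alone by 1.42 ± 0.16 (adjusted p 5.661e-17), both p-values from the authors' deposited table. The combination, 2.07 ± 0.16 above DMSO, differed from dasatinib alone by -0.13 ± 0.13 (adjusted p 0.4609 by the Wald test computed here). PGS1, which overlaps DNAH17 on the opposite strand, did not move with SGI-110 past the threshold (0.01 ± 0.06), and the antisense gene DNAH17-AS1 had 12 counts at most.

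Of the 8 inner arm heavy chains, 5 rose with SGI-110, 2 fell and 1 did not pass the threshold. The shares were 62.5% higher and 25% lower, against 30.4% and 17.1% of every gene tested. DNAH3 had the highest count of any of the 54 genes after treatment, with 3 counts in DMSO, 5712 with SGI-110, 15 under dasatinib and 954 under the combination. The ratio of SGI-110 to DMSO was 1610 (counting interval 550.5 to 7808), with 1.629e-35 as the adjusted p listed by the authors' deposited table. The level with both drugs lay between the extremes, above every group without SGI-110 and below SGI-110 alone. DNAH3 lies at chr16:20933111-21159441 on the minus strand. TMEM159, which overlaps it on the opposite strand, had 273, 561, 249 and 381 counts in the same treatments, fewer than DNAH3 in both groups with SGI-110. It went the same way as DNAH3, at 0.80 ± 0.15 with SGI-110 and -0.49 ± 0.15 for the combination against SGI-110. The part of overlapping reads in the DNAH3 value was not tested. About 88.7% of the DNAH3 reads of the 24 libraries fell in the compared line.

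DNAH12 and DNAH7 are single-headed inner arm motors. DNAH12 had 7 counts in DMSO, 311 with SGI-110, 10 under dasatinib and 63 under the combination, a log2 fold change of 5.23 ± 0.62 with SGI-110 (adjusted p 4.323e-16 from the authors' deposited table). DNAH7 had 12, 292, 16 and 148 counts, a change of 4.37 ± 0.46 (5.1e-20 as the adjusted p from the authors' deposited table). In both genes the 2 groups without SGI-110 lay together at 16 counts or fewer. DNAH2, part of the two-headed inner arm, had 1, 85, 2 and 38 counts, and DNAH6, another inner arm chain, had 3, 36, 3 and 11. Their SGI-110 to DMSO ratios were 71.9 (counting interval 12.55 to 2871) and 10.2 (3.205 to 51.49), with 2.774e-06 and 0.0008692 as the adjusted p listed by the authors' deposited table.

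The 3 inner arm chains already abundant in DMSO did not rise. DNAH10, the partner of DNAH2 in the two-headed arm, had 1190 counts in DMSO, 706 with SGI-110, 607 under dasatinib and 810 under the combination, and fell by 1.00 ± 0.20 log2 with SGI-110 (adjusted p 5.157e-06 from the authors' deposited table). Its opposite-strand neighbours CCDC92 and DNAH10OS fell too, by 1.54 ± 0.13 and 1.41 ± 0.34, and the part of overlapping reads in the DNAH10 value was not tested. DNAH14 had 1941, 1992, 2038 and 1422 counts and fell by 0.20 ± 0.09 with SGI-110 (adjusted p 0.0417 from the authors' deposited table). DNAH1, a chain needed in the sperm tail, had 491 counts in DMSO and 622 with SGI-110 (0.10 ± 0.12), with 0.524 as the adjusted p listed by the authors' deposited table.

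**Figure D3:**
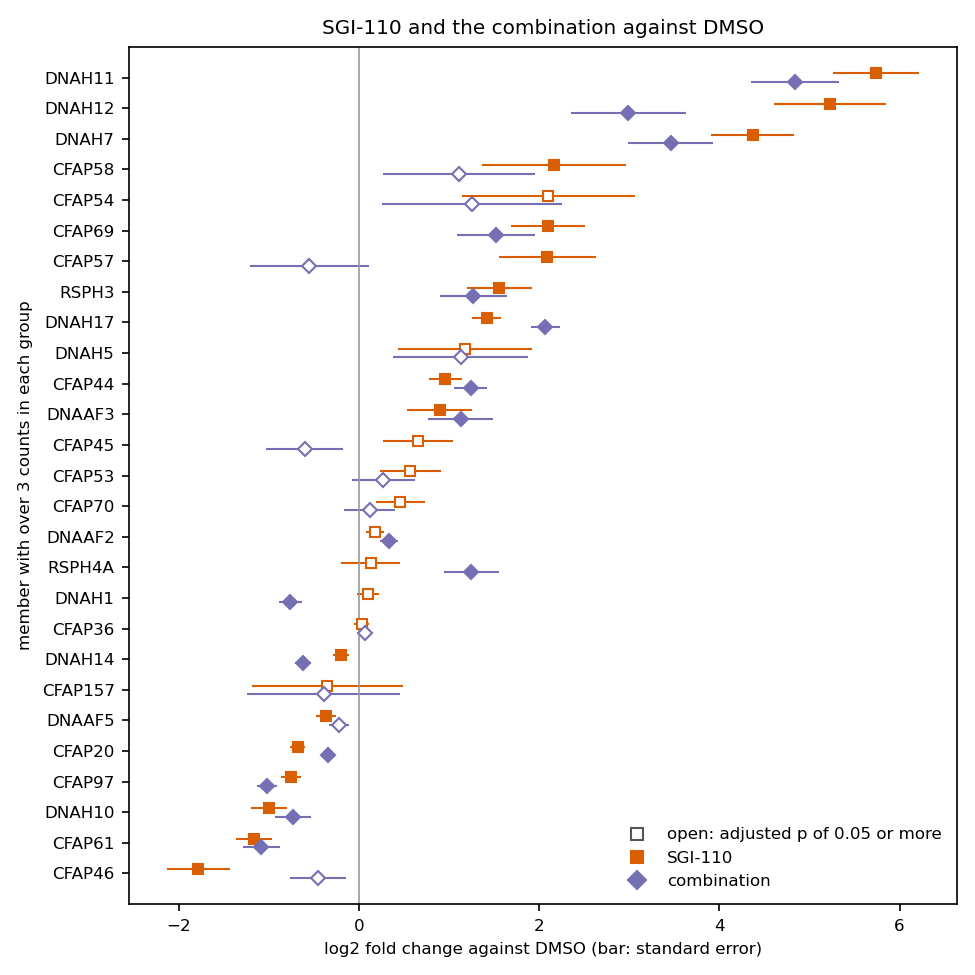
Log2 fold change against DMSO (bars, standard error) for the 27 axonemal genes with more than 3 counts in each group, for SGI-110 (squares) and the combination (diamonds); open symbols have an adjusted p of 0.05 or more. DNAH11 is at the top with 5.74 and CFAP46 at the bottom with -1.78, and DNAH12 shows a wide gap between the treatments at 5.23 and 2.99.

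Of the 4 assembly factors, which fold and join dynein subunits in the cytoplasm, 1 rose and 1 fell with SGI-110. Each is 25%, against 30.4% and 17.1% of every gene tested. DNAAF2, a co-chaperone of heavy chain folding, had 1020, 1368, 1431 and 1454 counts in DMSO, SGI-110, dasatinib and the combination, with a log2 fold change of 0.18 ± 0.10 with SGI-110 and 0.30 ± 0.10 with dasatinib. Only the second passed the threshold, with 0.01167 as the adjusted p listed by the authors' deposited table. DNAAF5 had 548, 506, 794 and 529 counts, a fall of 0.36 ± 0.11 with SGI-110 (adjusted p 0.004077) and a rise of 0.34 ± 0.11 with dasatinib (adjusted p 0.005753), both p-values from the authors' deposited table. DNAAF3 rose with SGI-110 by 0.90 ± 0.36 (38 to 85 counts, adjusted p 0.02678 from the authors' deposited table). DNAAF1 had 2 to 4 counts in every treatment, at or near the floor.

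Of the 8 radial spoke genes, 3 rose with SGI-110 and 1 fell (37.5% and 12.5%, against 30.4% and 17.1% of every gene tested). RSPH3, a spoke stalk protein, had 22 counts in DMSO, 76 with SGI-110, 20 under dasatinib and 59 under the combination, a rise of 1.56 ± 0.36 with SGI-110 (adjusted p 6.593e-05 from the authors' deposited table). RSPH9 and RSPH6A, spoke head proteins, each had 1 count in DMSO and 1 with dasatinib, and reached 33 and 27 with SGI-110 and 23 and 14 with the combination. Their SGI-110 to DMSO ratios were 27.9 (counting interval 4.671 to 1135) and 22.8 (3.762 to 934.6), with 0.001349 and 0.002681 as the adjusted p listed by the authors' deposited table. RSPH4A, a spoke head protein of motile cilia, had 44, 57, 58 and 118 counts, with no called change under either drug alone and a rise of 1.25 ± 0.30 with the combination (adjusted p 9.126e-05 from the authors' deposited table). RSPH14, RSPH10B and RSPH1 had 13 counts or fewer in every treatment and did not pass; RSPH10B has a near-identical copy, RSPH10B2, so its counts are uncertain.

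CFAP61, whose counterpart in the alga Chlamydomonas sits at the base of a radial spoke, was lower with every drug: 181 counts in DMSO, 96 with SGI-110, 60 under dasatinib and 96 under the combination. The falls were 1.16 ± 0.20 with SGI-110 (adjusted p 5.786e-08) and 1.78 ± 0.23 with dasatinib (adjusted p 5.987e-13), both p-values from the authors' deposited table. Its share in the compared line is small, about 6.4% of its reads in the 24 libraries. CRNKL1, on the opposite strand, had 3422 to 4922 counts and rose slightly with SGI-110 (0.25 ± 0.07).

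Of the 8 genes grouped with the central apparatus, mostly from the position of their Chlamydomonas counterparts, 1 rose with SGI-110 and 1 fell. Each is 14.3% of the 7 with an adjusted p, against 30.4% and 17.1% of every gene tested. CFAP69 rose by 2.10 ± 0.41 (17 to 86 counts, adjusted p 1.38e-06 from the authors' deposited table), with 8 counts under dasatinib and 55 under the combination. CFAP46 had the lowest log2 fold change with SGI-110 among the genes with more than 3 counts in each group, from 149 to 51 counts (-1.78 ± 0.35, adjusted p 1.592e-06 from the authors' deposited table), with 185 under dasatinib and 123 under the combination. CFAP70 did not pass with SGI-110 (84 and 137 counts, 0.46 ± 0.27) and fell to 20 counts with dasatinib, by 2.27 ± 0.40 (adjusted p 2.291e-07 from the authors' deposited table). CFAP54, CFAP74, CFAP65, CFAP47 and CFAP221 had 4 counts or fewer in DMSO and between 2 and 20 with SGI-110, and none passed the threshold.

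Of the 5 genes that hold inner arms or their base complexes, CFAP44, CFAP57 and CFAP100 rose with SGI-110 (60%, against 30.4% of every gene tested). CFAP44, which in Tetrahymena and Chlamydomonas tethers the two-headed inner arm to the doublet, had 125, 287, 103 and 333 counts and rose by 0.96 ± 0.18 (adjusted p 5.533e-07 from the authors' deposited table), while BOC on the opposite strand fell by 0.50 ± 0.07. CFAP57 had 16, 79, 15 and 12 counts, so only the group with SGI-110 alone stood apart (2.09 ± 0.54, adjusted p 0.0004019 from the authors' deposited table). CFAP100, part of a complex at the base of the two-headed arm in Chlamydomonas, was at 0 in DMSO and with dasatinib, 41 with SGI-110 and 33 with the combination, at least 11.5-fold above the floor with SGI-110 (adjusted p 8.378e-05 from the authors' deposited table). CFAP43 and CFAP73 had 7 counts or fewer in every treatment.

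Of the 14 genes of the doublet wall and other flagellar proteins, 2 rose with SGI-110 and 2 fell. In either direction that is 12.5% of the doublet genes with an adjusted p and 20% of the other flagellar genes. Every gene tested gave 30.4% higher and 17.1% lower. TEKT2, a tektin filament protein, went from 0 in DMSO and 2 with dasatinib to 20 with SGI-110 and 21 with the combination, at least 5.64-fold higher with SGI-110 (adjusted p 0.0004395 from the authors' deposited table). CFAP20, which also serves primary cilia, was among the most abundant with 2563, 1895, 3406 and 2282 counts, a fall of 0.68 ± 0.08 with SGI-110 (adjusted p 3.828e-15) and a rise of 0.22 ± 0.08 with dasatinib (adjusted p 0.02452), both p-values from the authors' deposited table. CFAP97 had 2055, 1449, 1895 and 1139 counts and fell with SGI-110 by 0.75 ± 0.11 and with dasatinib by 0.31 ± 0.11 (adjusted p 2.862e-11 and 0.01395 from the authors' deposited table). CFAP58 rose with SGI-110 by 2.17 ± 0.80 (8 to 43 counts, adjusted p 0.01596 from the authors' deposited table), and CFAP36 stayed within 1237 to 1515 counts (0.03 ± 0.08). CFAP45, CFAP53, CFAP157, CFAP99, TEKT3, TEKT5, CFAP52, CFAP77 and CFAP161 did not pass with SGI-110.

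Dynein heavy chains made up most of the genes that were lower when dasatinib was added to SGI-110. Against SGI-110 alone, 12 of the 54 genes were lower with the combination and 4 higher by the authors' deposited table, or 28.6% and 9.52% of the 42 with an adjusted p, against 17.0% and 14.2% of the genes tested. Of the 13 heavy chains, 8 were lower, 1 was higher, and the median log2 difference was -0.86, where that over every gene was -0.03. The inner arm chains accounted for 7 of the 8. This comparison and SGI-110 against DMSO share the SGI-110 libraries, so their values are not independent of each other.

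DNAH3 went from 5712 counts with SGI-110 to 954 with the combination, a log2 difference of -2.51 ± 0.10 (2.571e-132 as the adjusted p from the authors' deposited table). For DNAH12 the difference was -2.24 ± 0.35 (311 to 63 counts, adjusted p 2.355e-09) and for DNAI1 -2.49 ± 0.77 (35 to 6 counts, adjusted p 0.006104), both p-values from the authors' deposited table. DNAH7, DNAH11, DNAH2 and DNAH6 also fell, with differences of -0.91 ± 0.23, -0.90 ± 0.18, -1.09 ± 0.38 and -1.64 ± 0.58. CFAP57, needed in Chlamydomonas to place a subset of inner arms, went from 79 to 12 counts, near the 16 of DMSO, at -2.64 ± 0.58 (adjusted p 4.398e-05 from the authors' deposited table). The other 4 genes called lower were DNAH1, DNAH14, CFAP45 and CFAP97, at -0.86 ± 0.12, -0.42 ± 0.09, -1.26 ± 0.41 and -0.28 ± 0.11. DNAH8, DNAH9, DNAAF3, TEKT2, CFAP100, CFAP44, CFAP58, CFAP69, RSPH3, RSPH6A and RSPH9, which were also higher with SGI-110 than with DMSO, did not differ past the threshold between the combination and SGI-110, with log2 differences between -1.07 and 0.28. Some had wide errors, such as CFAP58 at -1.07 ± 0.70 and RSPH6A at -0.85 ± 0.73, so a difference of the size seen in DNAH11 could not be called there. Others were tighter, such as DNAH8 at 0.28 ± 0.20 and CFAP44 at 0.28 ± 0.15.

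The genes higher with the combination than with SGI-110 were DNAH17, RSPH4A, CFAP46 and CFAP20, by 0.64 ± 0.13, 1.12 ± 0.28, 1.33 ± 0.35 and 0.34 ± 0.08 log2. CFAP46, lower with SGI-110 alone, stood at 123 counts with both drugs and did not differ from DMSO past the threshold (-0.45 ± 0.31).

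The effect of SGI-110 with dasatinib present in both groups was read from the combination against dasatinib. Against dasatinib alone, 18 genes were higher with the combination and 4 lower by the Wald test computed here, against 26.6% and 16.5% of every gene; among genes with more than 3 counts in each group it was 12 and 4, with a median log2 difference of 0.90 over 28 genes. DNAH11 rose by 6.02 ± 0.67, DNAH3 by 6.01 ± 0.39, DNAH8 by 5.53 ± 0.74 and DNAH7 by 3.23 ± 0.42. CFAP69 and CFAP70 rose by 2.80 ± 0.57 and 2.39 ± 0.40, from 8 to 55 and from 20 to 103 counts. The 4 lower genes were abundant ones, namely CFAP97, DNAAF5, CFAP20 and DNAH14, at -0.71 ± 0.11, -0.57 ± 0.11, -0.56 ± 0.08 and -0.50 ± 0.09.

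Whether dasatinib acted differently with SGI-110 was tested as the difference of its 2 effects, by a Wald test computed here, which assumes that dasatinib against DMSO comes from the same fit. By this test 5 genes had a higher effect of dasatinib in the presence of SGI-110 and 5 a lower one (5 and 3 with more than 3 counts in each group), against 6.09% and 8.49% of every gene. The 5 higher were DNAH10, DNAH1, CFAP61, CFAP70 and CFAP44. Of these, DNAH10, DNAH1, CFAP61 and CFAP70 fell with dasatinib alone. DNAH1 fell from 491 to 147 counts with dasatinib alone (-1.94 ± 0.16, adjusted p 2.048e-33 from the authors' deposited table), and from 622 to 326 when SGI-110 was present, an interaction of 1.07 ± 0.20 log2 (adjusted p 2.373e-06). DNAH10 fell with dasatinib alone by 1.16 ± 0.21 and stood at 706 and 810 counts without and with dasatinib in the presence of SGI-110, an interaction of 1.43 ± 0.29 (adjusted p 2.359e-05). For CFAP61, CFAP70 and CFAP44 the interactions were 1.85 ± 0.32, 1.92 ± 0.48 and 0.76 ± 0.26, with adjusted p of 4.289e-07, 0.0009178 and 0.02768.

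The 5 lower interactions were DNAH17, DNAH12, CFAP57, DNAH3 and DNAI1. DNAH17 rose 2.20 ± 0.16 with dasatinib alone and 0.64 ± 0.13 on top of SGI-110, an interaction of -1.55 ± 0.21 (adjusted p 1.093e-11). DNAH12 had 7 and 10 counts without SGI-110 and 311 and 63 with it, without and with dasatinib, an interaction of -2.56 ± 0.84 (adjusted p 0.01967). For CFAP57 it was -2.37 ± 0.86 (adjusted p 0.043). DNAH3 and DNAI1 had 3 and 0 counts in DMSO, so their interactions are given as called (adjusted p 1.289e-05 and 0.03859) without a size.

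**Figure D4:**
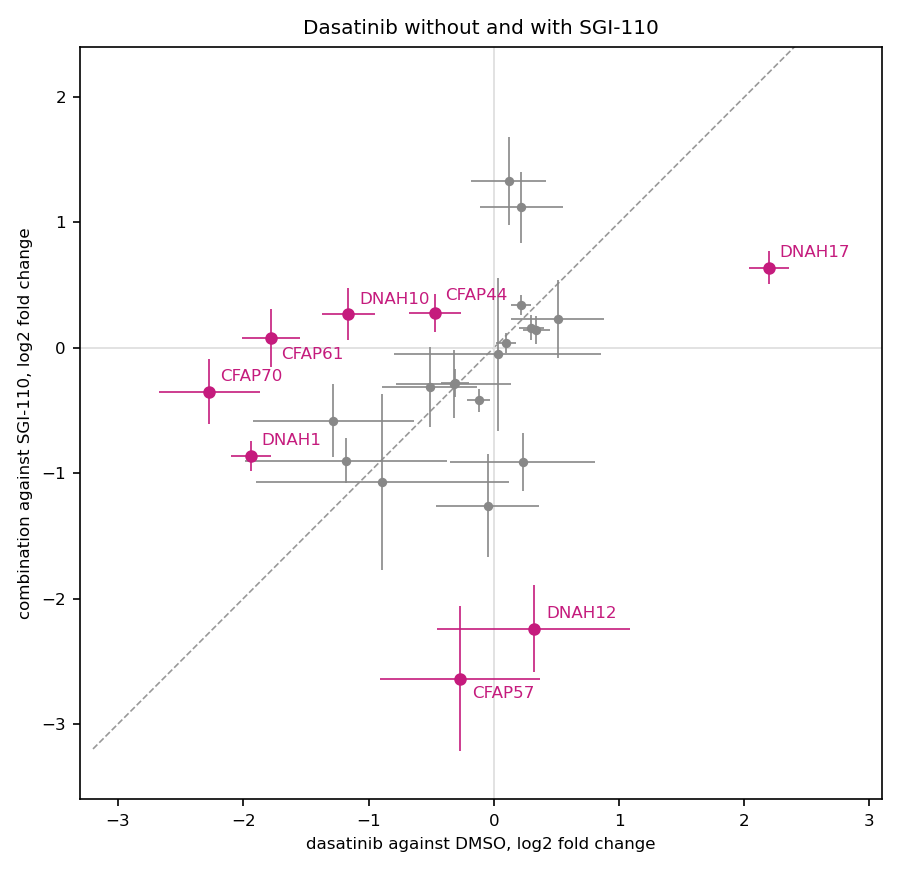
Log2 effect of dasatinib alone (horizontal, against DMSO) and on top of SGI-110 (vertical, combination against SGI-110) for the 25 axonemal genes with more than 3 counts in all 4 groups; bars are standard errors, and named genes have an interaction past the threshold. Points on the dashed line have equal effects; DNAH1, DNAH10, CFAP61 and CFAP70 lie left of it, and DNAH17, DNAH12 and CFAP57 lie below it.

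The promoters of these genes were read for letters that the ciliary factors are known to bind. RefSeq promoters (GRCh38.p14, 250 bases before to 50 after the start) were matched for 45 of the 54 genes. The X-box is the site of RFX factors, and its letters GTNNCC, 3 further bases and GNAAC, searched on both strands, were in 9 of the 45 promoters (20%), against 802 of 35116 promoters (2.28%). They were in 5 of the 16 matched genes that rose with SGI-110, in 0 of the 7 that fell and in 4 of the 22 others. The forkhead letters TGTTTAC were in 1 promoter (2.22%, against 3.42%), and the E-box letters CANCTG of muscle factors such as MYOD1 were in 55.6%, against 49.9%; the X-box, forkhead and E-box letters were counted independently of any overlap. A match describes the letters only. The 35116 promoters were not matched to those of the axonemal genes for base composition. For each gene the promoter nearest its start was taken without a distance limit, here and for the CpG pairs below. Some, such as those of CFAP161 and DNAH14, lie many kilobases from the gene start. Windows that show the box in genes that rose, and in DNAH1, which did not, are printed on the gene's strand with the box in capitals; they lie at chr7:21542981-21543038 (plus), chr3:57544345-57544415 (minus), chr17:7717696-7717743 (plus), chr6:43644855-43644928 (plus), chr3:126394857-126394908 (plus) and chr3:52316184-52316257 (plus), in the order shown.
DNAH11: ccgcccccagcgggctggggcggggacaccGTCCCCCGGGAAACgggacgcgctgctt
DNAH12: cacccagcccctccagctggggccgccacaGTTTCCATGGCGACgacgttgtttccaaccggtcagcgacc
DNAH2: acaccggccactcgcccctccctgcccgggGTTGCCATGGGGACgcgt
RSPH9: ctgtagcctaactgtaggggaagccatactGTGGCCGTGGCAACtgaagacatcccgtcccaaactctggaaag
CFAP100: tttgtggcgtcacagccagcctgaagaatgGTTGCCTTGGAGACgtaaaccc
DNAH1: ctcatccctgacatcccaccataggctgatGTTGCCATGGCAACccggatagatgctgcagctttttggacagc

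Promoters of the axonemal genes held a median of 22 CpG pairs, against 14 in all 35116. The medians were 24.5 for the 16 that rose, 35 for the 7 that fell and 21 for the 22 others, so the median was lower among genes that rose than among genes that fell. The ranges overlap, at 12 to 30 for genes that rose and 2 to 46 for genes that fell. All 7 that fell had 100 or more counts in DMSO, as did only 2 of all that rose, and promoters were not compared at equal level. DNA methylation itself was not measured in these libraries.

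Of 18 ciliary regulators in the files, 7 were higher with SGI-110 and 5 lower (38.9% and 27.8%, against 30.4% and 17.1% of every gene tested and 27.9% and 36.1% of genes at 100 or more counts in DMSO). FOXJ1, the forkhead factor of motile cilia, had 1 count in DMSO, 60 with SGI-110, 0 under dasatinib and 41 under the combination (adjusted p 2.252e-05 for SGI-110 from the authors' deposited table). RFX4 and FOXN4 were also near 0 without SGI-110, with 1, 16, 2 and 11 counts and 0, 9, 0 and 3 counts in the same order. Both were higher with SGI-110 (adjusted p 0.03354 and 0.03153 from the authors' deposited table). Neither passed the threshold with the combination against DMSO. RFX2 fell with SGI-110 by 0.44 ± 0.11 (823 to 716 counts, adjusted p 0.0001714 from the authors' deposited table), and RFX3 did not pass (304 to 420 counts, 0.23 ± 0.15). MCIDAS, which starts the multiciliated programme, had 220 to 344 counts and did not pass with SGI-110 (0.13 ± 0.20). CCNO, a partner of MCIDAS in making many basal bodies, rose by 3.24 ± 0.29 (35 to 393 counts, adjusted p 9.172e-28 from the authors' deposited table). Also higher were CREM, E2F5 and SOX5, at 0.79 ± 0.09, 0.86 ± 0.17 and 1.29 ± 0.40. Besides RFX2, the regulators that fell with SGI-110 were TP73, MYB, E2F4 and RFX7, at -0.59 ± 0.08, -0.57 ± 0.15, -0.34 ± 0.07 and -0.25 ± 0.08.

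Axonemal genes that carry other names were read from lists of the same structures. Of every gene tested, 30.4% were higher and 17.1% lower with SGI-110, and the shares below are of genes with an adjusted p. Of 8 docking and light chain genes 5 were higher and 1 lower with SGI-110 (62.5% and 12.5%). DNALI1, a light chain of the inner arm, had 6 counts in DMSO, 956 with SGI-110, 2 under dasatinib and 810 under the combination (7.08 ± 0.60, adjusted p 5.385e-31 from the authors' deposited table). NME8 was at 0 without SGI-110 and at 48 and 78 with it, and CCDC114, a docking protein, rose by 2.75 ± 0.50 (adjusted p 1.955e-07 from the authors' deposited table). Of 24 central pair, radial spoke and nexin genes 12 were higher and 4 lower (52.2% and 17.4%). The smallest adjusted p were those of SPAG17 (2.88 ± 0.24), IQCG (1.52 ± 0.13) and CCDC39 (3.54 ± 0.44). Of 12 further preassembly genes 3 were higher and 1 lower (25% and 8.33%), and of 12 further doublet genes 3 and 1 (30% and 10%). In these 2 lists the share higher was no greater than that of every gene. MAATS1, a doublet protein, was at 0 without SGI-110, 90 with it and 46 with the combination.

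The genes of the primary cilium, a sensory cilium without dynein arms that most cells can form, were read in the same way. Of 27 intraflagellar transport genes 4 were higher and 10 lower with SGI-110 (14.8% and 37%), with IFT52 and IFT140, both parts of the transport trains, at -0.89 ± 0.09 and -0.84 ± 0.09; of every gene at 100 or more counts in DMSO, 27.9% were higher and 36.1% lower. KIF17, a motor of those trains, was an exception at 3.86 ± 0.44. Of 30 BBSome and transition zone genes 8 were higher and 11 lower (26.7% and 36.7%), close to the shares of every gene at 100 or more counts, with a median log2 fold change of -0.09. Of 23 cytoplasmic and retrograde dynein genes, which move cargo along microtubules in any cell, 10 were higher and 5 lower, with a median of 0.06. These were 43.5% and 21.7%, against 30.4% and 17.1% of every gene tested. DYNLT3, a light chain of cytoplasmic dynein, had 1, 487, 0 and 295 counts in DMSO, SGI-110, dasatinib and the combination.

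Sperm tail and cell type markers were read for the other cells that use these genes. Of 15 sperm tail genes 6 were higher and 1 lower with SGI-110 (40% and 6.67%, against 30.4% and 17.1% of every gene tested). The other 8 did not pass the threshold. Among the 7 with more than 3 counts in each group, 3 were higher and 1 lower. Their median log2 fold change was 0.17, with a range of -1.35 to 1.07. CABYR and FSIP2, fibrous sheath proteins, were at 0 in DMSO and at 363 and 158 with SGI-110. Of all genes at 3 or fewer counts in DMSO, 36.3% were higher with SGI-110. Of the 16 spermatid markers listed, 4 were in the tables, 1 of which was higher, and their summed counts were 91, 149, 121 and 145 in DMSO, SGI-110, dasatinib and the combination. Of 14 markers of multiciliated epithelium 8 were higher and 2 lower with SGI-110 (57.1% and 14.3%, against 30.4% and 17.1% of every gene tested). Among the 9 with more than 3 counts in each group, 4 were higher and 2 lower. The summed counts of the 14 were 30965, 54709, 53174 and 52879 in the same order, of which the tubulin gene TUBB4B made up most. In DMSO 4 of the 14 were at 0, and with SGI-110 none was. Whether other cell types contribute to the axonemal counts was not tested.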

How the data were processed

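RNA of 24 cultures was made into stranded poly(A) libraries and read as pairs of 75 bases, per the labels' protocols. GRCh38 and the tools DESeq2 1.16.1, DESeq, featureCounts 1.5.1, HISAT2 2.1.0 and Trim Galore 0.4.2 are named in the submitters' processing notes, without roles. The strand setting used in counting is not given in the sources used here. Each of 4 tables holds 29639 genes. Their signal, baseMean, was deposited by the authors and is read, per the file headers, as the mean normalised count over libraries. The deposited lfcSE is the standard error of a log2 fold change, the deposited stat is a score, the Wald statistic, and the p-value and adjusted p-value are as the authors computed them.

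The log2 fold change was taken as the statistic times its standard error. The comparisons of combination and SGI-110 closed with gaps of at most 0.00152 log2 (median 8.09e-07). The largest standard error was 6.01, against 6.01 expected for 3 libraries per group and 4.25 for 6 in a fit of 24, so fold changes are read as those of 1 line. In planning, a joint effect over both lines had been assumed. Group variances were solved from the standard errors (1 gene gave a negative one), and the counts summed over 3 libraries were recovered from the variances, the mean normalised count and the fold changes. A group at 3 counts or fewer gets no fitted fold change: above 0 a ratio with an exact binomial interval is given, and at 0 a lower bound. The share of a gene's counts in the compared line (median 49.7% over 11759 genes) is approximate.

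The combination against dasatinib and the interaction are two-sided Wald tests with Benjamini-Hochberg adjustment over 29639 genes, tested on simulated data, in Python 3.11.15 with SciPy 1.17.1. Overlapping genes come from GENCODE 29: 22 of the 54 genes overlap a gene on the same strand and 35 one on the other. Full values are given for the 12 genes of smallest adjusted p with SGI-110, up to 10 in each other comparison, the 5 of highest mean count and those that fell; of each further list, the 3 of smallest adjusted p with SGI-110 and FOXJ1, RFX2, RFX3 and MCIDAS, plus genes chosen after their values were seen. Members and lists were chosen with earlier results of these data known.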

Additional observations from a re-analysis of the deposited data

Results flagged for a closer look

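For 8 axonemal genes the effect of dasatinib differed with and without SGI-110 by the interaction test, where all 4 groups had more than 3 counts. That is 5 higher and 3 lower of 25 axonemal genes measured that way, against 1793 and 2475 of 19131 genes, so such calls were common among all genes. The differences, effect with SGI-110 minus effect without it on the log2 scale, were 1.92 for CFAP70, 1.85 for CFAP61, 1.43 for DNAH10, 1.07 for DNAH1 and 0.76 for CFAP44. They were -1.55 for DNAH17, -2.37 for CFAP57 and -2.56 for DNAH12. CFAP61 and DNAH1 have small shares of their reads in the compared line, about 6.4% and 16.7%, and the approximate share of DNAH12 is 82.4%.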

How the results depend on the processing

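The count of genes higher with SGI-110 was 20, 13 where the mean normalised count reached 10 and 10 with more than 3 counts in each group, a limit added after seeing the data. Under that limit the genes higher with the combination went from 19 to 10 and the lower interactions from 5 to 3. At an adjusted p under 0.01 the genes higher with dasatinib went from 4 to 2 and the lower interactions from 5 to 2. The cause of these shifts is fewer genes tested or a stricter limit. With Benjamini-Hochberg over every gene, CFAP97 in the combination against SGI-110 had an adjusted p of 0.05432 and 76 other named p-values stayed past the threshold. Judged by the standard error of the group instead of the recovered count, 5 genes with SGI-110 and 6 with the combination had an error at least as large as that of 0.5 counts per library (1.18 log2), and 13 and 14 one at least as large as that of 1 count per library (0.833 log2); spread between libraries adds to this error, so these numbers differ from those by count. No paired analysis was possible because the tables hold no values per library, and for the same reason no replicate could be left out. Depth limits the genes at 3 or fewer counts, where counting intervals span over 10-fold.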
